A study of Homo sapiens with 6 samples.

Results

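The genes described here are 9 components of major histocompatibility complex (MHC) class I antigen presentation: the heavy chain genes HLA-B, HLA-C, HLA-E and HLA-F, the light chain gene B2M, the peptide transporter genes TAP1 and TAP2, the loading factor gene TAPBP and the peptidase gene ERAP1. They were chosen by gene symbol, and all 9 were found among the 15243 genes of the authors' deposited table. The series holds 6 ribosome footprint (Ribo-seq) samples of NCI-H1299, a human lung carcinoma cell line that lacks p53, in 3 shControl samples, which the design text calls puro, and 3 shALDH18A1 samples. ALDH18A1 encodes P5CS, a proline synthesis enzyme, and the series asks whether this enzyme also binds RNA and changes translation. No hairpin sequence, number of hairpins, time after transduction or clonal origin was given in the sources used here, and both groups share the same cell line and medium. The labels call the tissue lung adenocarcinoma, but of 4 markers of that tumour only NKX2-1 had a value, at a mean normalized count of 3.24 in the authors' deposited table.

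The values are those of 1 comparison made by the authors, with no values per sample, so library depths are unknown and the spread between replicates cannot be shown. Each gene has a mean normalized count, a log2 fold change with its standard error (SE, written after ±) and a p-value adjusted over the table. The labels do not say that the samples were separate cultures, so p-values measure the spread between these samples, which may be technical. In such bulk samples a change in the share of cells that use a gene cannot be told apart from a change per cell. The authors' name for the comparison, DTEG, is not spelled out in the sources used here. Which group served as reference is not stated, nor is it stated whether the fold describes footprints alone or footprints relative to RNA. Higher and lower therefore give the sign in the authors' deposited table and not a direction between shALDH18A1 and shControl. In the authors' deposited table ALDH18A1 itself stood at −0.19 ± 0.12 and was not called (adjusted p = 0.173). This value can check the knockdown only if the fold describes footprints alone, which is not stated. A gene was called at an adjusted p under 0.05. Of all genes in the authors' deposited table, 58.4% were called, 28.9% higher and 29.4% lower.

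Class I molecules carry peptides of proteins made inside the cell to its surface, where CD8 T cells and natural killer (NK) cells read them. Peptides cut by the proteasome are pumped into the endoplasmic reticulum (ER) by the TAP1-TAP2 transporter, trimmed by ERAP1, and fitted onto a heavy chain paired with B2M while tapasin, the product of TAPBP, holds the complex at the transporter. Tumour cells often carry low levels of these proteins. Interferon raises the transcription of most of these genes. Their promoters can hold an interferon-stimulated response element (ISRE) and an NF-kB site. The heavy chain genes and B2M can also hold a module with X and Y boxes. RFX, CREB or ATF and NF-Y factors bind this module together with NLRC5.

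The promoters of 6 members are shown because they hold these elements and because their genes span the fold changes of the members called below. They are RefSeq reference windows of GRCh38.p14, from 250 bases before to 50 bases after the annotated start, 5′ to 3′ on the gene's strand, and not the alleles of NCI-H1299. Capitals mark matches on either strand to the ISRE letters (GAAA, any 2 bases, GAAA), to TGACG (the X2 box or cAMP response element core), to CCAAT (Y box) or to either of the NF-kB forms GGGANTCCC and GGGA, any base, TTTCC. HLA-B lies at chr6:31357130-31357429 on the minus strand, HLA-C at chr6:31272043-31272342 on the minus strand and HLA-F at chr6:29723184-29723483 on the plus strand. B2M lies at chr15:44711267-44711566 on the plus strand, TAPBP at chr6:33314029-33314328 on the minus strand and TAP1 at chr6:32853655-32853954 on the minus strand.
HLA-B: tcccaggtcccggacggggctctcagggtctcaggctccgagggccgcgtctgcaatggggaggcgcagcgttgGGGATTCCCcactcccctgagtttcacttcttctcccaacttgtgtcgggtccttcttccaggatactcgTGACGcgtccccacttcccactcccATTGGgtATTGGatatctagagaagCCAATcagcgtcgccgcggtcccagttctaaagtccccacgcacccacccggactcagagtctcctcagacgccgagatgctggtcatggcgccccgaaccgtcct
HLA-C: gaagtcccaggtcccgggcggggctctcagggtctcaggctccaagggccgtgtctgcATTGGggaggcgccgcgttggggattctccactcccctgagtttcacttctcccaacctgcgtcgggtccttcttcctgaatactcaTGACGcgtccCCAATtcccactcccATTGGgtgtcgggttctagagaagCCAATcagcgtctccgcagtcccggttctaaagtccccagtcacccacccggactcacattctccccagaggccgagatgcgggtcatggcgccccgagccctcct
HLA-F: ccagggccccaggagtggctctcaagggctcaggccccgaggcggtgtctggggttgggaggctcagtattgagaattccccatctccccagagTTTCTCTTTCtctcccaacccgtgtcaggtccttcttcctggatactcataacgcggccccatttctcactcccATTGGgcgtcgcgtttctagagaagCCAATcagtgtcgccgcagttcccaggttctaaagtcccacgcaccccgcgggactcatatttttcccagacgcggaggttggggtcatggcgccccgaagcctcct
B2M: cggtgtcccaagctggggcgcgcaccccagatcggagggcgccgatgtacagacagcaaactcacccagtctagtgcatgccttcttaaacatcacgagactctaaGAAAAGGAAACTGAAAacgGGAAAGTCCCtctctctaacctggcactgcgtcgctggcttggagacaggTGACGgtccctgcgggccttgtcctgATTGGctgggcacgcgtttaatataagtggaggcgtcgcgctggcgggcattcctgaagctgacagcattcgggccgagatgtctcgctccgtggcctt
TAPBP: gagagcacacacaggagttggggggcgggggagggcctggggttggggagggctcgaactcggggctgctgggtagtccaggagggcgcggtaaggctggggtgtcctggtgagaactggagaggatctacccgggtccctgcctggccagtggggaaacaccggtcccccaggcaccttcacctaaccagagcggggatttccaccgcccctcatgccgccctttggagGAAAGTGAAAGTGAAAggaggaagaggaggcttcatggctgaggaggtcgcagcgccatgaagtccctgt
TAP1: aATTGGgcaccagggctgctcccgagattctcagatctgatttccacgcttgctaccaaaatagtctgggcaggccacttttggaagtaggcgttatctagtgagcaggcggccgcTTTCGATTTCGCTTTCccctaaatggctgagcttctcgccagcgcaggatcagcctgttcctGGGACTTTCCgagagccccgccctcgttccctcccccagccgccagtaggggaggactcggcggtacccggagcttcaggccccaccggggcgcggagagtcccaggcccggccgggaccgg

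Of the 9 genes, 8 were called higher and none lower in the authors' deposited table, against 28.9% of all genes called higher, and ERAP1 was not called. In the authors' deposited table the median log2 fold change of the 9 was 1.15 and that of all genes was 0.02. All 9 lay above the table's median mean normalized count of 150.2, and among the 7622 genes at or above it 30.9% were called higher and the median was −0.10. The members fell into separate ranges: B2M, TAPBP, HLA-B, TAP2 and HLA-C stood between 1.15 and 1.55, HLA-E, HLA-F and TAP1 between 0.32 and 0.35, and no member lay between 0.35 and 1.15 in the authors' deposited table. Of the genes in the authors' deposited table, 14.7% were called higher by at least 1 on the log2 scale, and 5 of the 9 members were. The authors' own marks, which ask for a log2 fold change beyond 1 and a raw p under 0.05 and take in 15.2% of all genes as up, put the same 5 genes as up and the other 4 as stable.

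**Figure D1:**
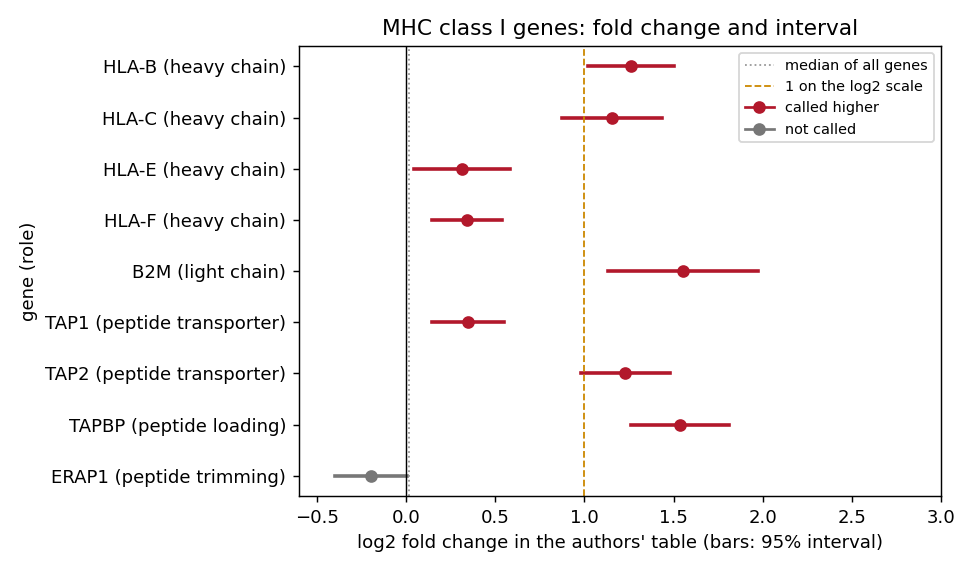
Log2 fold change in the authors' deposited table (horizontal axis) of the 9 MHC class I genes, listed by role, with points for the fold change and bars for the 95% interval. The intervals of HLA-B, HLA-C, B2M, TAP2 and TAPBP all lie above those of HLA-E, HLA-F, TAP1 and ERAP1.

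Among the heavy chains, HLA-B and HLA-C were the higher ones. These are the classical chains that show peptides to CD8 T cells, and HLA-C is also a main ligand of killer immunoglobulin-like receptors on NK cells. HLA-B (Entrez ID 3106, chromosome 6 from 31353875 to 31357179 in GRCh38) had, in the authors' deposited table, a log2 fold change of 1.26 ± 0.12 (adjusted p = 6.51e-24) at a mean normalized count of 7120. Taken as log2, the base assumed for every fold here, this is a 2.40-fold difference with a 95% interval from 2.03 to 2.83. HLA-C (Entrez ID 3107, chromosome 6 from 31268749 to 31272092) followed at 1.15 ± 0.14 in the authors' deposited table (adjusted p = 5.89e-15), with a mean normalized count of 5326, a 2.23-fold difference. The HLA-B and HLA-C values differed by 0.11, with a 95% interval from −0.26 to 0.48 if their errors are taken as independent, so they could not be told apart.

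HLA-E and HLA-F, both non-classical heavy chains, had smaller values. HLA-E (chromosome 6 from 30489509 to 30494194) presents leader peptides of other class I chains to the NKG2A receptor of NK cells. It was called at 0.32 ± 0.14 in the authors' deposited table (adjusted p = 0.0371), with a mean normalized count of 2358, a 1.24-fold difference whose 95% interval ran from 1.03 to 1.50. The HLA-E call was the least secure of the 8, and with the fold changes centred on the median of all genes its adjusted p was 0.0501. HLA-F (chromosome 6 from 29723434 to 29738532), which can reach the surface without peptide, was at 0.34 ± 0.10 in the authors' deposited table (adjusted p = 0.00169), with a mean normalized count of 446. HLA-B exceeded HLA-E by 0.95 (95% interval 0.59 to 1.31) and HLA-F by 0.92 (0.61 to 1.23) on the log2 scale, again with errors taken as independent. HLA-G, a further non-classical chain that is no member and was named after its value was seen, was at 0.92 ± 0.12 in the authors' deposited table, between these 2 and HLA-B, and its difference from them was not tested.

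Heavy chain genes are close paralogs and carry many alleles, so that a short read can fit several of them. The printed HLA-B and HLA-C windows were identical in 88.5% of the aligned columns, HLA-B and HLA-F in 79.7% and HLA-C and HLA-F in 78.9%. The window pairs that involve another member lay between 48.2% and 52.7%. These are promoter windows that lie mostly before the annotated start, so their identity does not show how far reads are shared. Identity of the coding sequences was not measured. How reads that fit several heavy chain genes were handled is not given in the sources used here, so the split between HLA-B, HLA-C, HLA-E and HLA-F is uncertain and its part in their values was not tested.

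B2M, the light chain shared by all class I molecules and encoded outside the complex (chromosome 15 from 44711517 to 44718145), had the largest fold change of the 9. It stood at 1.55 ± 0.21 in the authors' deposited table (adjusted p = 3.16e-12), with a mean normalized count of 3524, a 2.93-fold difference with a 95% interval from 2.19 to 3.92. Its SE was also the largest of the members, at 2.14 times the median SE of 0.10 among genes in the same of 10 equal bins of mean normalized count. B2M and HLA-B differed by 0.29 (95% interval −0.19 to 0.77), and B2M and HLA-C by 0.40 (−0.11 to 0.90), so light chain and classical heavy chain values overlapped.

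The partners of the peptide transporter moved by different amounts. TAP2 (chromosome 6 from 32821831 to 32838739) was at 1.23 ± 0.13 in the authors' deposited table (adjusted p = 5.34e-21), with a mean normalized count of 1977, a 2.34-fold difference. TAP1 (chromosome 6 from 32845209 to 32853704), its partner in the heterodimer, was at 0.35 ± 0.10 in the authors' deposited table (adjusted p = 0.00173), with a mean normalized count of 1105, a 1.27-fold difference. TAP2 exceeded TAP1 by 0.88 on the log2 scale, with a 95% interval from 0.56 to 1.20 if the errors are independent. Both were called higher, and their own intervals, 0.98 to 1.48 for TAP2 and 0.15 to 0.55 for TAP1, did not overlap.

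TAPBP (chromosome 6 from 33299694 to 33314078) had the smallest adjusted p of the members. It stood at 1.54 ± 0.14 in the authors' deposited table (adjusted p = 4.82e-27), with a mean normalized count of 1134, a 2.90-fold difference with a 95% interval from 2.40 to 3.51. Its gene span overlaps that of RGL2 by 1919 bases, and in the authors' deposited table RGL2 had 0.24 ± 0.19 and was not called. The tapasin value lay next to that of B2M, from which it differed by 0.01 (95% interval −0.49 to 0.52).

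ERAP1 (chromosome 5 from 96760813 to 96935854), which trims peptides to the length that class I grooves hold, was the exception. It was at −0.20 ± 0.10 in the authors' deposited table (adjusted p = 0.0907), with a mean normalized count of 1187. Its 95% interval from −0.40 to 0.01 leaves out values as high as those of B2M, TAPBP, HLA-B, TAP2 and HLA-C. The ERAP1 span overlaps CAST by 13871 bases and ERAP2 by 43733 bases, and it is not stated whether reads were counted by strand. CAST was at −0.53 ± 0.16 in the authors' deposited table (adjusted p = 0.00234), with a mean normalized count of 3417, and the part of shared reads in the ERAP1 value was not tested. ERAP2, the other ER aminopeptidase, was called higher in the authors' deposited table (1.08 ± 0.36, adjusted p = 0.00523), with a mean normalized count of only 29.4; it was named after its value was seen.

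Set pair against pair with errors taken as independent, 23 of the 36 differences between members had a 95% interval above 0, and the covariance between genes is not given. These included all 20 pairs of B2M, TAPBP, HLA-B, TAP2 or HLA-C with one of the other 4, and 0 of the 10 pairs among those 5. The remaining 3 were ERAP1 against HLA-E, HLA-F and TAP1. The split into 5 and 4 was read from the values themselves and is a description. Under Bonferroni adjustment of the authors' p-values 5 of the 9 members stayed called, without HLA-E, HLA-F and TAP1. B2M exceeded 90.9% of all genes in its fold change, TAPBP 90.7%, HLA-B 86.9%, TAP2 86.4% and HLA-C 85.1%, and HLA-E, HLA-F and TAP1 between 62.1% and 63.2%. Among genes in the same of 10 equal bins of mean normalized count the shares were larger, at 96.1% for TAPBP, 95.2% for B2M, 91.4% for HLA-B, 91.1% for TAP2 and 90.0% for HLA-C.

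**Figure D2:**
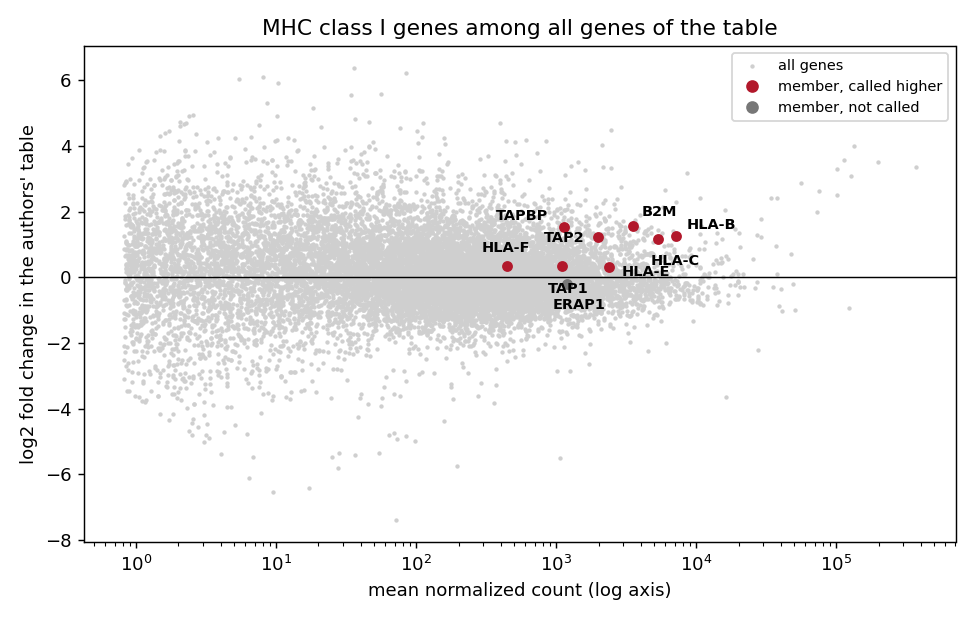
Log2 fold change against mean normalized count (log axis) in the authors' deposited table, with each of the 15243 genes as a grey point and the 9 MHC class I genes as coloured points. The members lie at mean normalized counts from 446 to 7120, 5 of them above 1 on the log2 scale and inside the cloud of other genes.

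The motif matches were not the same in all promoters, and a match is only a description of letters. Only the exact letters were sought. A window without a match, such as that of HLA-B or HLA-C for the ISRE, can still hold a variant of the element. Windows were at hand for 8 members, HLA-E being the other, and the one listed first was used for TAP1 and ERAP1, which have several. TGACG occurred in the windows of HLA-B, HLA-C, B2M and TAP2, and in 30.7% of the 17278 windows of measured genes. CCAAT occurred in 6 windows, those of HLA-B, HLA-C, HLA-F, B2M, TAP1 and ERAP1, against 34.9% of these windows. The ISRE letters were matched in 6 windows, those of HLA-F, B2M, TAP1, TAP2, TAPBP and ERAP1, against 2.94%. In B2M, TAP1 and TAPBP they were matched in overlapping copies. GGGANTCCC, which reads alike on both strands, was found in HLA-B and in 1.08% of the windows, and the other NF-kB form in B2M and TAP1 and in 0.538% of them. No match of one motif overlapped a match of another.

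Read against the fold changes, 4 of the 5 members above 1 on the log2 scale held TGACG, the exception being TAPBP. HLA-F, TAP1 and ERAP1 did not hold it, and HLA-E had no window. These letters occur in 30.7% of the windows of measured genes, and the TAP2 window held no CCAAT match beside them. The divide at 1 was read from the values themselves, and a relation between motifs and fold changes was not tested. The ISRE letters were present on both sides of that divide, in B2M, TAP2 and TAPBP and in HLA-F, TAP1 and ERAP1. The HLA-B and HLA-C windows shared the TGACG match 106 and 105 bases before the start and a CCAAT match 56 bases before it. In HLA-F the CCAAT matches lay 57 and 82 bases before the start, and HLA-B and HLA-C had a further one 81 and 80 bases before it.

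**Figure D3:**
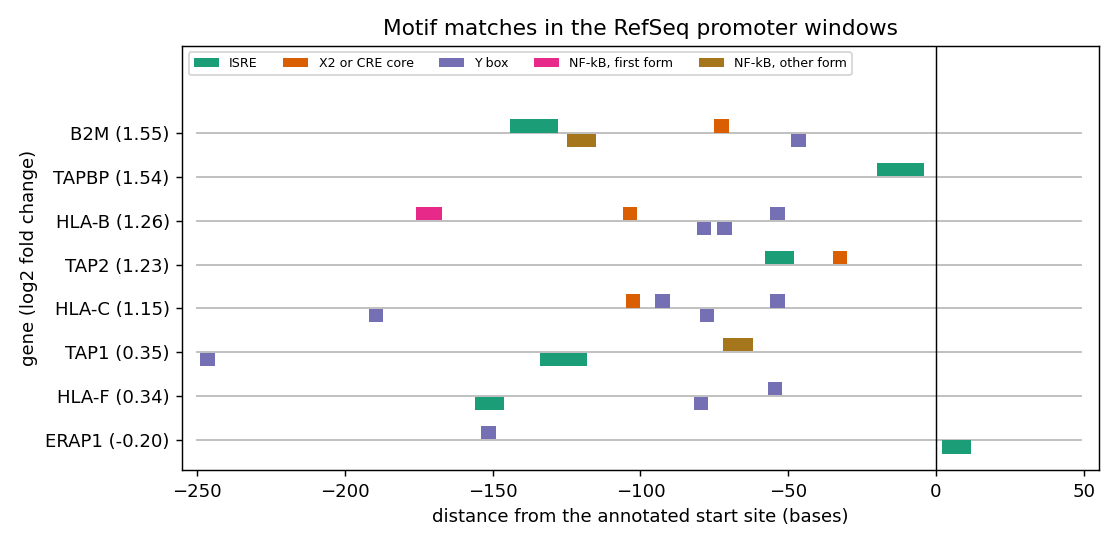
Matches to the 5 motifs by distance from the annotated start site in bases (horizontal axis) for the 8 members with a promoter window, ordered by log2 fold change in the authors' deposited table; blocks above a line are matches on the gene's strand and blocks below it on the other, and the first NF-kB form is GGGANTCCC. TGACG, the X2 or CRE core, appears in B2M, HLA-B, TAP2 and HLA-C, and in 30.7% of the windows of measured genes.

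Position in the genome was shared by 7 of the 9 genes, which lie on chromosome 6 between 29723434 and 33314078. The other 107 measured genes of this stretch were called higher in 35 cases, lower in 20 and not called in 52 in the authors' deposited table, with a median of 0.18. That is 32.7% called higher, beside 28.9% of all genes. Of the 59 that lay at or above the median mean normalized count, as all members did, 27 were called higher (45.8%), beside 30.9% of all such genes, and none of these differences was tested. Called higher by at least 1 on the log2 scale were 19 of the 107 and 12 of the 59. Beside these stand 14.7% of all genes of any mean normalized count, again without a test. The share among all genes at or above the median mean normalized count was not computed at this minimum. Of the 9 measured genes that lie directly beside a member, 2 were higher (22.2%), 1 lower and 6 not called in the authors' deposited table. Their median was 0.61, and none was called higher by at least 1 on the log2 scale. Those called higher were HLA-G and MICA, of the class I-like list described below, both named after their values were seen. PSMB8 and PSMB9, the immunoproteasome genes that lie beside TAP1, had 0.18 ± 0.12 and 0.77 ± 0.49 in the authors' deposited table and were not called; they were named after their values were seen.

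**Figure D4:**
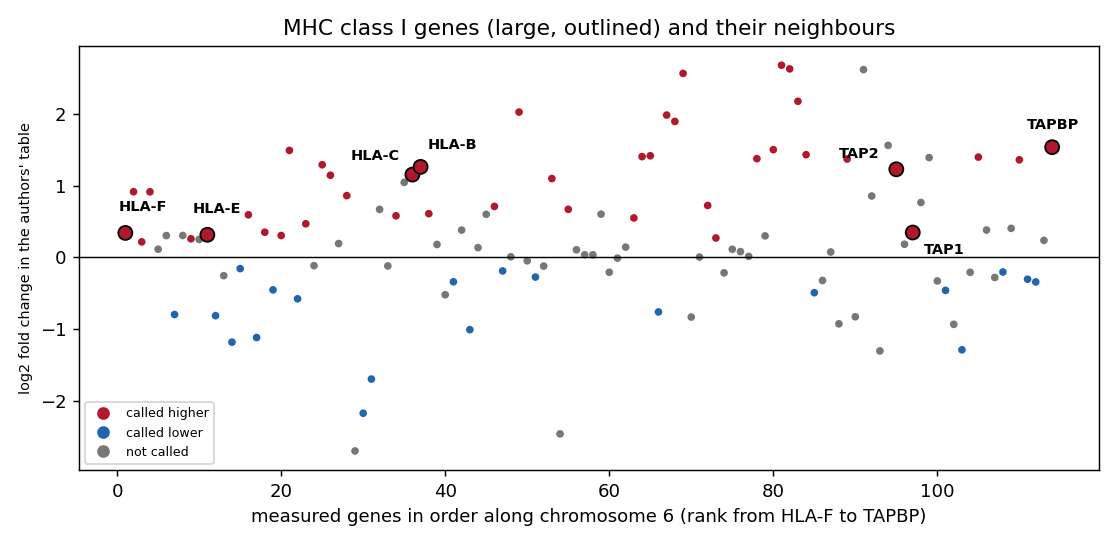
Log2 fold change in the authors' deposited table of the 114 measured genes between HLA-F and TAPBP on chromosome 6 (horizontal axis, rank along the chromosome), with the 7 members large and outlined. The other measured genes of this stretch lie on both sides of 0.

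The ER-side helpers of class I assembly were mostly called higher. Of 12 genes for peptide loading and glycan quality control, 8 were called higher, 0 lower and 4 not called in the authors' deposited table, with a median of 0.46. That is 66.7% called higher, beside 28.9% of all genes, and the list was not tested. Glycan trimming enzymes, whose product calreticulin and calnexin bind, were among the smallest p: PRKCSH, the glucosidase II beta subunit gene, was at 0.89 ± 0.08, MOGS, glucosidase I, at 1.27 ± 0.13, and GANAB, the glucosidase II catalytic subunit gene, at 0.43 ± 0.05 in the authors' deposited table. PDIA3, the thiol oxidoreductase that is bound to tapasin, was at 0.58 ± 0.07 in the authors' deposited table. CALR and CANX, the calreticulin and calnexin genes, had 0.03 ± 0.11 and 0.11 ± 0.13 in the authors' deposited table and were not called; they were named after their values were seen.

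The cytosolic steps that feed the transporter went both ways. Of 15 genes for peptide supply, 4 were higher, 7 lower and 4 not called in the authors' deposited table, with a median of −0.17. The 26.7% called higher and 46.7% called lower stand beside 28.9% and 29.4% of all genes. NPEPPS, a cytosolic aminopeptidase, was at −0.88 ± 0.07, the proteasome activator gene PSME3 at −0.84 ± 0.08, the proteasome subunit gene PSMB7 at −0.70 ± 0.08 and the leucine aminopeptidase gene LAP3 at −0.56 ± 0.08 in the authors' deposited table. The activator subunits PSME1 (0.33 ± 0.10) and PSME2 (0.28 ± 0.09) were higher in the authors' deposited table. The immunoproteasome genes PSMB8 (0.18 ± 0.12), PSMB9 (0.77 ± 0.49) and PSMB10 (−0.10 ± 0.17) were not called in the authors' deposited table. PSME1, PSME2 and the immunoproteasome genes were named after their values were seen.

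Genes that control class I transcription also went both ways. Of 27 such genes, 7 were higher, 12 lower and 8 not called in the authors' deposited table, with a median of −0.22. The share called higher, 25.9%, was close to the 28.9% of all genes, and the share called lower was 44.4% beside 29.4%, with no test of either. NFKB1, an NF-kB subunit gene, was at −1.28 ± 0.07, the kinase gene JAK1 of interferon receptors at −0.84 ± 0.07, and SUZ12, a subunit of the Polycomb complex that can silence class I genes, at −0.93 ± 0.09 in the authors' deposited table. IFNGR2, a chain of the interferon gamma receptor, had 1.54 ± 0.10 in the authors' deposited table.

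Among the same regulators, the following were named after their values were seen. The 3 NF-Y subunit genes, whose product binds CCAAT, were all lower, with NFYA at −0.83 ± 0.13, NFYB at −0.73 ± 0.16 and NFYC at −0.60 ± 0.10 in the authors' deposited table. IRF1, an interferon-induced factor that binds the ISRE, was lower, with −1.19 ± 0.20 in the authors' deposited table. NLRC5, the class I transactivator, was called higher in the authors' deposited table (1.23 ± 0.47, adjusted p = 0.0182), at a mean normalized count of only 10.3. RFXANK, a subunit of the RFX complex, was higher at 1.05 ± 0.18, and RFX5, at 0.38 ± 0.20 in the authors' deposited table, was not called.

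Proteins built like class I heavy chains, and stress ligands of the NK receptor NKG2D, counted 10 higher, 0 lower and 2 not called of 12 measured in the authors' deposited table, with a median of 1.62. That is 83.3% called higher, beside 28.9% of all genes. Among the 5 of them at or above the median mean normalized count the median was 0.92. FCGRT, the neonatal Fc receptor chain that pairs with B2M, was at 2.17 ± 0.13, and HFE, the iron-regulating protein that also pairs with B2M, at 2.99 ± 0.25 in the authors' deposited table. ULBP3, an NKG2D ligand, was at 1.74 ± 0.14 and PROCR, a protein C receptor with a class I-like fold, at 1.49 ± 0.16 in the authors' deposited table.

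Genes for class I turnover and ER disposal were higher in 8, lower in 3 and not called in 2 of 13 in the authors' deposited table, with a median of 0.50. The 61.5% called higher and 23.1% called lower stand beside 28.9% and 29.4% of all genes. HM13, the signal peptide peptidase that frees the leader peptides shown by HLA-E, was at 1.16 ± 0.10, and DERL1, an ER channel component used in the removal of class I chains, at 1.06 ± 0.13 in the authors' deposited table. TMEM127, a membrane protein that with SUSD6 and WWP2 sends class I to the lysosome, was at 0.92 ± 0.11 in the authors' deposited table. VCP, the cytosolic ATPase that pulls chains from the ER, was lower at −0.76 ± 0.06 in the authors' deposited table. WWP2 was lower at −0.71 ± 0.10 in the authors' deposited table and SUSD6, at 0.03 ± 0.15, was not called, both named after their values were seen.

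**Figure D5:**
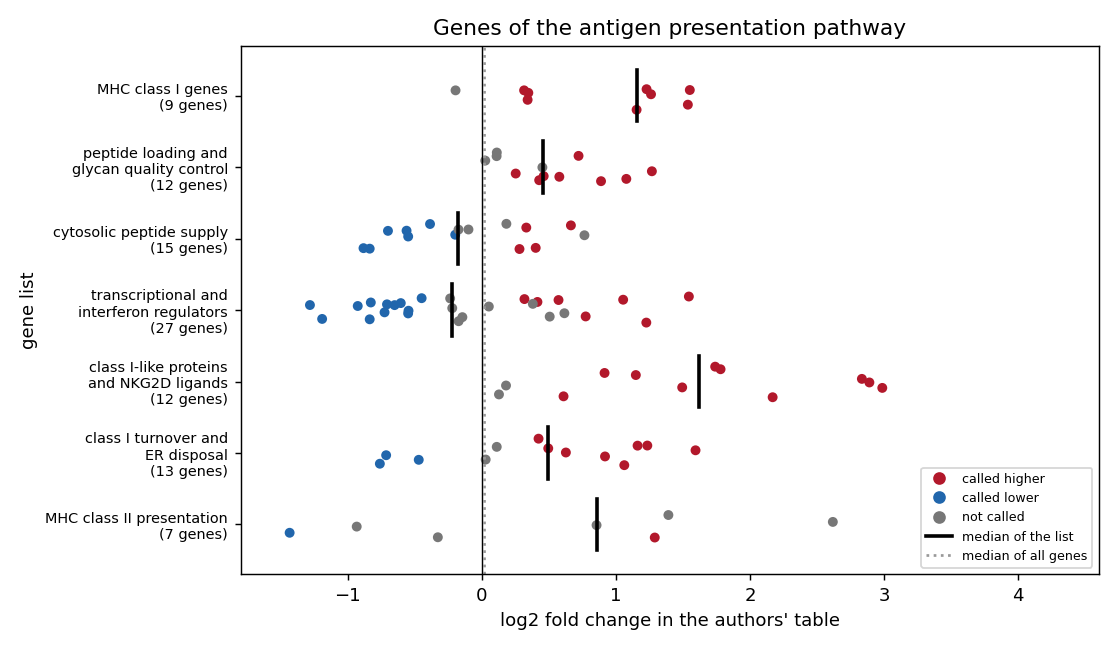
Log2 fold change in the authors' deposited table (horizontal axis) of every measured gene in the 9-gene set and 6 further lists of the pathway, with black bars for list medians. Medians lie at 1.15 for the MHC class I genes and 1.62 for class I-like proteins, and at −0.17 and −0.22 for peptide supply and regulators.

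Many genes called higher were also found among membrane proteins that were not picked for a part in antigen presentation. Of 186 genes named TMEM with a number, membrane proteins with no common function, 58.1% were called higher and 8.6% lower in the authors' deposited table, with a median of 0.65. Of the 86 at or above the median mean normalized count, 75.6% were called higher and 10.5% lower in the authors' deposited table, with a median of 0.62. This set was chosen by name after values were seen, and it includes TMEM127 and TMEM129 of the turnover list, both called higher. The 9 members, of which 88.9% were called higher, were not tested against it.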

How the data were processed

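Ribo-seq of 6 NCI-H1299 samples was represented by 1 table of the authors' own comparison. Per the submitters' processing notes, fastp 0.23.2, STAR 2.7.10a and featureCounts were used with build hg38; the sources used here give neither their settings nor the handling of strand and of reads that fit several genes. The deposited mean per gene is a signal headed baseMean. It was read as read counts scaled by size factors and averaged over libraries, which the header does not spell out. The deposited fold change and its SE were read as log2 values because of how the header is laid out. The deposited statistic is a score equal to fold change over SE (largest difference 1.49e-13), and the deposited p-value is its two-sided normal p. The deposited adjusted p-value equals a Benjamini-Hochberg adjustment over 15244 entries (largest difference 7.42e-06).

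Only the entry of smallest p was kept for a repeated symbol. Of the 15243 genes left, 14700 matched RefSeq (GRCh38.p14) by Entrez ID. Intervals of 95% are normal intervals from the deposited SE. Differences between genes used the root of the summed squared SEs. Promoter windows were aligned end to end (Biopython 1.88; match 1, mismatch −1, gap opening −2, gap extension −0.5). Other work used pandas 2.3.3, numpy 2.4.6, matplotlib 3.10.9 and scipy 1.17.1 under Python 3.11.15. The adjustments were tested on simulated data, and the motif search and alignment were checked on short fixed sequences.

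The members and the lists were chosen with earlier results of these data known, so no list was tested and no p was adjusted over a list. Named were the 9 members and, from each of the 6 other lists, the 4 called genes with the smallest p, or all called genes where at most 5 were called. Other class I genes are not all reported here. The planned tests on values per sample and the planned levels per coding length and protein identities were not run. Precision rests on the deposited SE, since depth is unknown, and mean normalized counts are not corrected for gene length.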

Additional observations from a re-analysis of the deposited data

How the results depend on the processing

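No paired analysis was possible because the table holds no values per sample; for the same reason no sample could be left out and no other normalization or count filter tried. Levels per coding length were not run. Under 10 alternatives, B2M, HLA-B, HLA-C, TAP2 and TAPBP kept their sign and call in each. The alternative that read the fold change as a natural log could not alter a sign or call, since the p-values stay the same. It made the folds larger, from 2.93 to 4.72 for B2M and from 2.90 to 4.65 for TAPBP. From the authors' fold changes and p-values, HLA-E (0.32) was not called at an adjusted p under 0.01, under Benjamini-Yekutieli adjustment (adjusted p = 0.379), under Bonferroni adjustment or with a fold minimum of 1 on the log2 scale, nor after centring (0.30, adjusted p = 0.0501). HLA-F (0.34) and TAP1 (0.35) were lost under Bonferroni adjustment and the fold minimum. Members called higher then numbered 5 under either. At an adjusted p under 0.1, ERAP1 (−0.20) was called, which made 1 member lower, and 2 class II genes were called higher.

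With the fold minimum, 2244 genes were higher and 1367 lower; loading genes were higher in 2, supply genes higher in 0 and lower in 0, regulators higher in 3 and lower in 2, and turnover genes higher in 4 and lower in 0. These drops follow from the minimum itself. Under Bonferroni adjustment, 2338 genes were higher and 2366 lower, with 5 loading genes, 1 supply gene and 4 regulators higher. Class II genes called lower were 0 under Bonferroni, under Benjamini-Yekutieli and at 0.01. Among genes at or above the median mean normalized count, which are fewer, 2390 genes were higher, 7 regulators lower and 4 class I-like genes higher, and class II genes numbered 0 higher and 0 lower. For other counts the cause was not tested. The SE of the members, 0.10 to 0.21, limits what could be told apart.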

Other observations

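MHC class II presentation, the route by which professional antigen-presenting cells show ingested proteins, left little trace. Of 11 genes sought, 7 had a value, and their mean normalized counts had a median of 4.25 in the authors' deposited table, which leaves most fold changes without a usable precision. IFI30, a lysosomal thiol reductase, was called higher in the authors' deposited table (1.29 ± 0.16, adjusted p = 2.81e-14), with a mean normalized count of 118. CTSS, the protease that cuts the invariant chain, was called lower in the authors' deposited table (−1.43 ± 0.61, adjusted p = 0.0345), with a mean normalized count of 5.26. The other 5 were not called.

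Marker genes of leukocytes and endothelium, whose cells also carry class I molecules, had few counts. Of 5 leukocyte markers 1 had a value, CD14, at a mean normalized count of 2.92 in the authors' deposited table, and 3 endothelial markers lay between 1.56 and 13.2. CD14 was called higher in the authors' deposited table (1.92 ± 0.73, adjusted p = 0.0165), and no endothelial marker was called. KRT8 and KRT18, keratin genes of simple epithelia, had mean normalized counts of 6396 and 6869 in the authors' deposited table, and the mesenchymal filament gene VIM 22046. KRT8 (0.41 ± 0.08), KRT18 (0.76 ± 0.10) and the matrix gene FN1 (1.20 ± 0.10) were called higher and VIM lower (−0.28 ± 0.04) in the authors' deposited table, and their part in the values of the class I genes was not tested. The epithelial adhesion genes EPCAM and CDH1 lay at 11.4 and 1.95 in the authors' deposited table.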
